A study of Mus musculus with 14 samples.

Results

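Meiotic double-strand breaks (DSBs) are resected and their ends are loaded with the recombinase DMC1. Immunoprecipitation of DMC1 followed by sequencing of single-stranded fragments (DMC1 ChIP-SSDS) therefore gives peaks at the sites of DSBs. The 2831 peaks described here are strong peaks of the *Hells* cKO testis at one-directional coding promoters. They were selected from the 17117 peaks of the *Hells* cKO list by a rule: an autosome, a strength of 62 or more, no *Hells* CTRL center less than 400 bp away, and a transcript start of a protein-coding gene within 1 kb of the center, with all such starts on one strand. The strength is the authors' score for each peak, and the center is the midpoint of the deposited interval. *Hells* CTRL mice (Hellsfl/Δ) carried 1 floxed and 1 deleted allele of *Hells*, and *Hells* cKO mice (Hellsfl/Δ;Stra8-iCre) carried the same alleles together with a Cre recombinase driven by the *Stra8* promoter, which is active in male germ cells around the entry into meiosis. Whole testes were used for both genotypes, at 5 weeks with 2 testes per replicate for *Hells* CTRL and at 9 weeks with 3 testes per replicate for *Hells* cKO, so that age and genotype cannot be told apart. The authors merged 2 replicates per genotype into 1 list per genotype. There is therefore no replicate spread and no test between genotypes, and the intervals given below cover counting error over peaks, promoters or genes only. Peaks are DNA and do not measure expression, so the tissue label could not be checked against marker genes, and the share of cells that kept HELLS was not measured here.

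In mouse meiosis, the zinc finger protein PRDM9 binds specific DNA motifs, methylates the neighbouring histones and directs DSBs to these sites, away from promoters. HELLS is a chromatin remodeler of the SNF2 family that opens chromatin together with PRDM9. Where PRDM9 does not act, DSBs form at so-called default sites, many of which are promoters that carry H3K4me3 independently of PRDM9. Most mammalian promoters of widely expressed genes lie in CpG islands, stretches of DNA that are rich in G+C and keep their CpG dinucleotides because these are largely unmethylated. A one-directional promoter drives a coding gene on 1 strand only, whereas a bidirectional promoter lies between coding genes that are transcribed away from each other.

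Of the 17117 *Hells* cKO peaks, 16321 were on autosomes and 4063 of these reached a strength of 62. No *Hells* CTRL center lay less than 400 bp from 3962 of them, a coding start lay within 1 kb of 3303, and the coding starts were on 1 strand at 2831. The other 472 were bidirectional, and 659 of the 3962 lay off coding promoters. A further 4962 *Hells* cKO peaks met the rule except for a strength under 62, so that 36.3% of the 7793 peaks at one-directional coding promoters were selected by their strength. The selected peaks held 39.1% of the summed strength of the *Hells* cKO list (351794 of 899812). Their strength ranged from 62 to 629, with a median of 105 and quartiles of 80 and 149, and their width from 1212 to 4448 bp, with a median of 2268 bp. Since strength chose the peaks, these values are a description. At the threshold itself, 52 selected peaks had a strength of 62, the first in genome order being those of *Mcmdc2* and *Fam168b*, and 38 otherwise eligible peaks had a strength of 61, the first being those of *Cyp20a1* and *Klf7*.

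The selected peaks lay at the nearest starts of 2794 genes, and 2827 of the 20807 autosomal coding genes (13.6%) had 1 of them within 1 kb of a start. The distance to the nearest *Hells* CTRL center had a median of 54538 bp. For 12 peaks a *Hells* CTRL center lay between 400 and 1000 bp away, and these *Hells* CTRL peaks had strengths of 20 to 1242, with a median of 41. The strongest of all selected peaks, at *Rims2*, was among the 12: a *Hells* CTRL peak of strength 37 was centered 660 bp away. The *Hells* CTRL neighbours of strength 1242 at *Rtkn2*, 721 bp away, and of strength 599 at *Zfp961*, 801 bp away, were named after their values had been seen. Strengths of different lists were not normalized to each other by the authors, so no fold is given.

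Sequences near starts of the genes with the strongest peaks are printed as examples. Each of the following runs covers 90 bp before and 30 bp after a start of the gene, on the strand of the gene in the GRCm38 reference, with CpG dinucleotides in capitals. The start is the one nearest to the center whose window held at most 30 bases annotated as UTR, so it is not always the nearest start. The *Kbtbd8* run lies at a start 377 bp upstream of the center, whereas the nearest start is 133 bp upstream. Coding bases were not limited. In the *Slc35d1* run, an atg opens a reading frame that continues to the end, so most of this run can be coding sequence.
*Rims2* (chr15:39198242-39198361, plus strand): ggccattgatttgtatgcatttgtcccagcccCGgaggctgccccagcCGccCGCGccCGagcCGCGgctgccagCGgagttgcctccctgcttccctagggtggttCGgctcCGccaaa
*Slc35d1* (chr4:103214774-103214893, minus strand): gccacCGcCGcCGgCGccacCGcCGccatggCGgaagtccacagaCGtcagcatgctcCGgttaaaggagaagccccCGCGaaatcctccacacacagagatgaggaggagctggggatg
*Kbtbd8* (chr6:95117650-95117769, plus strand): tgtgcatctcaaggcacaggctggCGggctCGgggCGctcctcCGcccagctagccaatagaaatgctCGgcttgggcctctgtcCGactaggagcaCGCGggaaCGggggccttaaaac
*Fndc3a* (chr14:72709974-72710093, minus strand): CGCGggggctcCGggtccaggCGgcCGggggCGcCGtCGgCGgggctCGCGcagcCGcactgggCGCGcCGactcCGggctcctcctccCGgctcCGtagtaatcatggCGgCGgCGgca
*Arid4a* (chr12:71015900-71016019, plus strand): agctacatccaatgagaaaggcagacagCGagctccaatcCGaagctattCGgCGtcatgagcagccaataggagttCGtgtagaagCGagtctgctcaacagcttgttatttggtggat
*Sec62* (chr3:30792785-30792904, plus strand): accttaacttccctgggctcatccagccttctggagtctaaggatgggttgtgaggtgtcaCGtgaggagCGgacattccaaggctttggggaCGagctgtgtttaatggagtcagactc

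These 120 bp held 10, 11, 9, 21, 6 and 3 CpG dinucleotides, in the order printed. The *Sec62* run, with the fewest, lies at a start 725 bp upstream of the peak center, whereas the 500 bp around that center held 70 CpG dinucleotides. The contrast is given by the 2 strongest selected peaks whose centers were not CpG-rich. For these the 80 bp at the center itself are printed, on the strand of the gene.
*Fkbp3* (chr12:65074413-65074492, minus strand): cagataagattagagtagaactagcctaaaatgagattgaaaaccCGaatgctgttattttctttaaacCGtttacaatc
*Klf10* (chr15:38300397-38300476, minus strand): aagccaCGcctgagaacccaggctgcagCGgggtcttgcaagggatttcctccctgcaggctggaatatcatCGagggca

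The *Fkbp3* and *Klf10* centers held 2 and 3 CpG dinucleotides in these 80 bp.

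The 12 strongest selected peaks had strengths of 436 to 629. *Rims2*, a scaffold protein of the presynaptic active zone, had the strongest peak (chr15:39196496-39200705, strength 629), centered in an intron 238 bp downstream of the nearest start. *Slc35d1*, a nucleotide sugar transporter of the endoplasmic reticulum, had a peak of strength 533 (chr4:103213469-103216382), centered at -123 bp, upstream of the nearest start, in an exon of a longer transcript, before the coding sequence. The peak of *Kbtbd8*, an adaptor of a cullin ubiquitin ligase, had a strength of 511 (chr6:95116846-95119387) and a center 133 bp downstream of the nearest start. The next peaks were those of *Fndc3a* (strength 500), whose protein is needed for the adhesion of spermatids to Sertoli cells, *Arid4a* (493), a partner of the retinoblastoma protein, *Sec62* (487), part of the machinery that moves proteins into the endoplasmic reticulum, and *Snx13* (486), a sorting nexin. They were followed by *Kmt2e* (469), a member of the MLL family, *Mybl1* (459), *Fn1* (437), which encodes fibronectin, *Hectd2* (436), a ubiquitin ligase, and *Rbm46* (436), an RNA-binding protein of germ cells. *Mybl1* encodes A-MYB, the transcription factor of pachytene spermatocytes. All 12 centers were CpG-rich, with 36 CpG dinucleotides within 250 bp at *Fn1* and 91 at *Hectd2* as the lowest and highest. *Arid4a* had a *Hells* CTRL center of strength 32 at 1193 bp, and the other 10 beside *Rims2* had none within 5 kb.

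The centers lay mainly downstream of the start. The center was downstream of the nearest coding start in 2072 of the 2831 selected peaks (73.2%, exact 95% interval 71.5 to 74.8%), upstream in 752 and at the start base in 7. The median position was 104 bp downstream (95% interval 96 to 113 bp; quartiles -6 and 245 bp). In 1595 peaks (56.3%) the center was 1 to 300 bp downstream, and in 1056 (37.3%) it was within 100 bp on either side. More than 500 bp downstream lay 119 centers (4.20%), compared with 32 (1.13%) more than 500 bp upstream. By the annotation of the nearest gene, 1018 centers (36.0%) were in an intron, 848 in an exon before the coding sequence, 515 (18.2%) in a coding exon, 163 (5.76%) in another exon and 287 (10.1%) outside the gene.

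The distance from the start depended on which start was used. Many genes have several annotated starts, with a median of 3 coding starts within 1 kb of a selected center, and the nearest one gives the smallest distance. With transcripts tagged as basic alone the median was 176 bp, from the start of the transcript with the longest coding sequence 227 bp, and from the most upstream coding start of the gene 298 bp. The share downstream was then 80.1%, 80.6% and 89.8%. Among the 566 peaks with only 1 coding start within 1 kb, 79.5% were downstream and the median was 219.5 bp. The share downstream was above 70% under each of these definitions. From the most upstream start it could not fall, since a center downstream of the nearest start is also downstream of that one.

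Weaker peaks at one-directional promoters had nearly the same position. Of the 4962 peaks of strength under 62, 70.9% (69.7 to 72.2%) were downstream, with a median of 93 bp (85 to 100 bp). The 472 bidirectional peaks of strength 62 or more lay closer to a start. Their median was 19.5 bp (8 to 34 bp), 61.9% (57.3 to 66.3%) were downstream, and 61.2% were within 100 bp of a start. Bidirectional promoters had a median of 7 coding starts within 1 kb, so a start is also nearer there by number alone. Among the selected peaks, 526 (18.6%) had a start of another gene type, such as a noncoding RNA, on the opposite strand within 1 kb. Their share downstream was 70.3% (66.2 to 74.2%), compared with 73.8% (72.0 to 75.6%) in the other 2305.

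**Figure D1:**
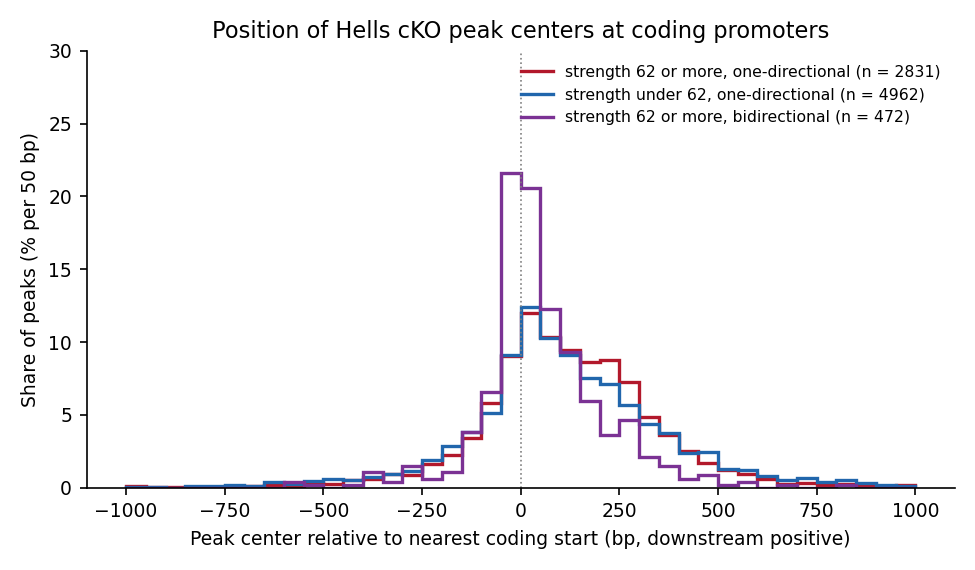
Position of peak centers relative to the nearest coding start. The x axis gives the distance in bp, positive downstream on the strand of the gene, and the y axis the percent of peaks per 50 bp, for one-directional promoters at strength 62 or more (n = 2831), one-directional promoters under 62 (n = 4962) and bidirectional promoters at 62 or more (n = 472). Both one-directional curves extend to the downstream side, and the bidirectional curve is narrow around the start.

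The largest displacements among the 500 strongest selected peaks were named by rule. Downstream, these were *Zfr* (822 bp, strength 325), which encodes a zinc finger RNA-binding protein, *Fem1c* (732 bp, strength 254), a substrate receptor of a ubiquitin ligase, and *Sohlh2* (701 bp, strength 171), a transcription factor of differentiating spermatogonia. Upstream, they were *Epha7* (-963 bp, strength 173), an ephrin receptor, *Dtymk* (-763 bp, strength 193), thymidylate kinase, and *Cdkn2c* (-742 bp, strength 179), an inhibitor of cyclin-dependent kinases. The intervals of all these peaks were wider than the median of 2268 bp. They were 2614 bp at *Zfr*, 2672 bp at *Fem1c*, 2304 bp at *Sohlh2*, 4394 bp at *Epha7*, 3154 bp at *Dtymk* and 2996 bp at *Cdkn2c*. Selected peaks of strength 149 or more had a median width of 2438 bp.

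The selected peaks were rich in CpG dinucleotides. Within 250 bp of the center the median was 50 CpG dinucleotides (95% interval 50 to 51; quartiles 38 and 63), compared with 37 (36 to 37) at weaker one-directional peaks, 46 (44 to 47) at strong bidirectional peaks and 18 (17 to 19) at strong peaks off coding promoters. A center was called CpG-rich when the surrounding 500 bp had a G+C of at least 50% and at least 0.6 of the CpG dinucleotides expected from its C and G. By this definition 2597 of the 2831 centers (91.7%, 90.7 to 92.7%) were CpG-rich. The share was 73.7% (72.4 to 74.9%) at weaker one-directional peaks, 94.9% (92.5 to 96.7%) at strong bidirectional peaks and 33.2% (29.6 to 37.0%) at strong peaks off coding promoters. Within the selection, the median was 45 CpG dinucleotides at strengths of 62 to 79 (n = 707) and 57 at strengths of 149 and above (n = 711), and the Spearman coefficient of strength with CpG number over the 2831 peaks, which share 1 list and 1 depth, was 0.244.

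CpG dinucleotides were not symmetric around the start. The mean over the selected peaks was highest in the 100 bp before the start, with 11.1 CpG dinucleotides. It was still 9.47 at 200 to 300 bp downstream, compared with 7.28 at 200 to 300 bp upstream. This was not particular to the selected peaks, since weaker one-directional peaks had 7.27 and 5.07 at these positions. The mean position of the CpG dinucleotides within 750 bp of the start, the CpG centroid, had a median of 44.8 bp downstream. At weaker one-directional peaks this median was 54.4 bp. The centroid was downstream at 66.4% of the selected and 69.9% of the weaker peaks. Peak centers were closer to this centroid (median 107 bp) than to the start (median 150 bp), and the centroid was the nearer of both in 1897 of 2830 peaks (exact 95% interval 65.3 to 68.8%). At weaker one-directional peaks it was nearer in 62.7% (61.4 to 64.1%). Across peaks, center position and centroid position had a Spearman coefficient of 0.628 at the selected peaks and 0.482 at the weaker ones (n = 4960). Both positions were measured from the same start. A shift of that start moves both, so a positive coefficient can arise from this alone, and its part was not tested. One-directional CpG-rich promoters without any *Hells* cKO peak had 10.8 CpG dinucleotides in the first 100 bp after the start, close to the 10.6 of the selected promoters. They had 9.08 at 200 to 300 bp downstream and 4.96 at 200 to 300 bp upstream. Their start was that of the transcript with the longest coding sequence, whereas the selected promoters were read at the start nearest to the peak. The part of this choice of start in the comparison was not tested.

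**Figure D2:**
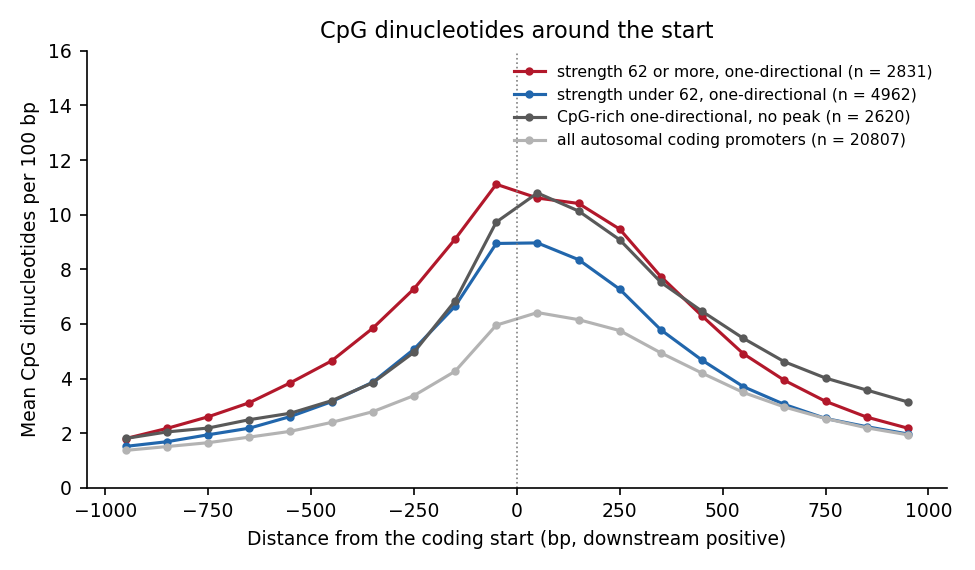
CpG dinucleotides around coding starts. The x axis gives the distance from the start in bp, positive downstream, and the y axis the mean number of CpG dinucleotides per 100 bp, at the nearest start of the selected and the weaker peaks and at the start of the transcript with the longest coding sequence for CpG-rich promoters without a peak and for all 20807 autosomal coding promoters. The selected promoters reach 11.1 just before the start and all promoters 6.42 just after it.

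Seen from the genes, the share with a selected peak was higher at higher CpG number. Of the 3750 genes with 0 to 4 CpG dinucleotides within 250 bp of the start of the transcript with the longest coding sequence, 65 (1.73%, 1.34 to 2.20%) had a selected peak. The share was 10.1% at 20 to 29 CpG dinucleotides, 24.1% at 40 to 49 and 30.5% in the 3714 genes with 50 or more. At the same starts, 85.7% of the 2827 genes with a selected peak had a CpG-rich promoter, compared with 73.4% of the genes with only a weaker one-directional peak and 26.0% of the genes without any *Hells* cKO peak.

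The 234 selected peaks that were not CpG-rich (8.27%) had a median strength of 83.5, with 314 as the highest, compared with 106 for the CpG-rich ones. Their centers held a median of 19.5 CpG dinucleotides and lay farther from the nearest start, at a median of 246 bp on either side against 143 bp. The share downstream was 64.5% (58.0 to 70.7%), below the 74.0% (72.2 to 75.6%) of the CpG-rich peaks. For 119 of them (50.9%) the gene was CpG-rich at the start of its transcript with the longest coding sequence. The strongest were those of *Fkbp3* (strength 314, 14 CpG dinucleotides, center at -446 bp), which encodes a prolyl isomerase, *Klf10* (264, 24 CpG dinucleotides, 269 bp downstream), a zinc finger factor induced by TGF-beta, and an internal *Rims2* start (253) described below, with *Psma8* and *Exoc4* at the same strength as *Rims2*. A few genes of the testis gene groups described below were among them, although most selected peaks of these groups were CpG-rich. CpG-rich were 11 of 14 peaks at genes of meiotic prophase, 4 of 5 at spermatogonial genes and 3 of 3 at spermatid genes. *Stra8*, which is required for the entry into meiosis, had a peak of strength 163 with 14 CpG dinucleotides, centered at -28 bp. *Hells* cKO mice also carry a *Stra8* promoter in the transgene, and reads of the transgene and of the *Stra8* locus cannot be told apart. *Syce1*, of the synaptonemal complex, had a strength of 202 with 27 CpG dinucleotides. *Mei4*, required for DSB formation (strength 177, 28 CpG dinucleotides), and *Sycp3*, of the axial element (strength 118, 6 CpG dinucleotides, center at -533 bp), were the other 2 in the list of 44 genes of meiotic prophase and were named after their values had been seen.

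Promoters with and without a selected peak overlapped in CpG number. For each gene, the promoter was taken at the start of the transcript with the longest coding sequence. A peak was counted within 1 kb of any coding start of the gene, so it can lie at another start than this promoter. Of 8553 one-directional promoters that were CpG-rich at the start, 2410 (28.2%) belonged to a gene with a selected peak. For 3434 (40.1%) the gene had a weaker one-directional peak, for 89 (1.04%) another *Hells* cKO peak and for 2620 (30.6%) none. The median number of CpG dinucleotides was 48, 43, 45 and 42 in these classes. The G+C content of the surrounding 100 kb also differed. Its median was 42.8% (quartiles 41.2 and 44.7%) for promoters with a selected peak, 45.9% (43.6 and 48.3%) for those with a weaker peak and 48.0% (45.2 and 50.2%) for those without a peak. This comparison was chosen after the data had been seen.

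When the 8553 promoters were divided into 10 classes of nearly equal size by the G+C of their surroundings, the share with a selected peak was lower in each class than in the one before. It was 58.8% (55.4 to 62.1%) in the class with the lowest G+C (up to 40.9%), 57.1%, 47.7% and 38.4% in the next ones, 28.9% and 22.2% in the middle, and 12.7%, 9.25%, 5.03% and 1.64% (0.897 to 2.73%) in the classes with the highest G+C. The median number of CpG dinucleotides at the start stayed between 43 and 46 over the 10 classes. The share of promoters without any peak went the other way, from 13.4% (11.2 to 15.9%) to 65.2% (61.9 to 68.4%). The share with a weaker peak was highest in the seventh class, at 50.6%. Gene length moved with regional G+C, from a median of 65617.5 bp in the lowest class to 13900.5 bp in the highest, and its part in the result was not tested. The authors' normalization of strength to the local background may also differ with the surroundings, and its part was not tested.

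**Figure D3:**
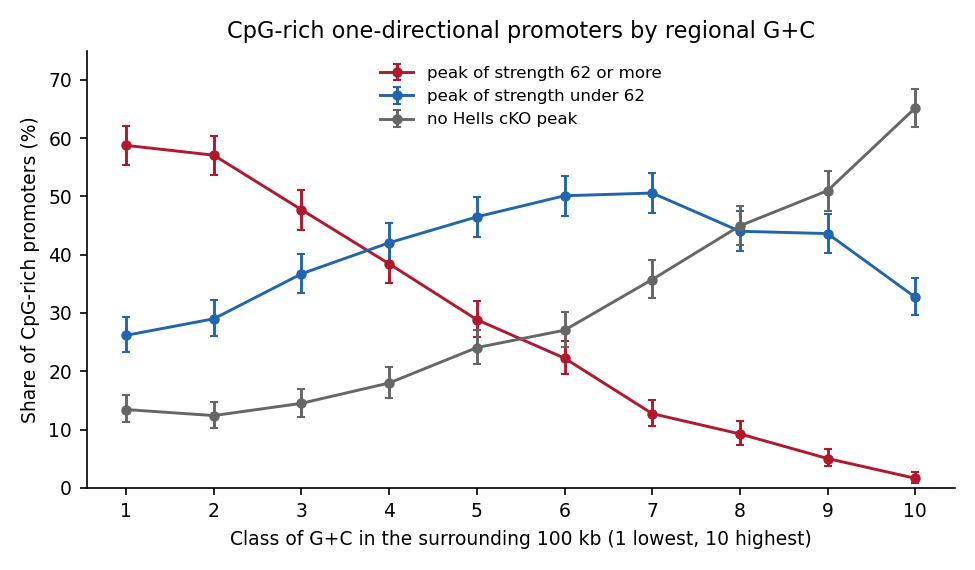
CpG-rich one-directional promoters by regional G+C. The x axis gives 10 classes of the G+C content in the surrounding 100 kb, from 1 (lowest) to 10 (highest), and the y axis the percent of promoters with a peak of strength 62 or more, with a weaker peak and with no *Hells* cKO peak, with exact 95% intervals. A peak at any coding start of the gene is counted. The share with a strong peak is 58.8% in the lowest class and 1.64% in the highest, and the share without a peak 13.4% and 65.2%.

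Within the selection, strength was lower at higher regional G+C. The share with a selected peak, given above, is a cut of this same score, and strength chose the peaks. The values below therefore describe the same gradient and are not a separate result. In the lowest of 5 classes of regional G+C the median strength was 134 (95% interval 123 to 143), and it was 117, 107, 99 and 84.5 (82 to 87) in the following ones. The Spearman coefficient of strength with regional G+C was -0.316 over the 2831 peaks. It was negative on each of the 19 autosomes, between -0.134 on chromosome 13 and -0.483 on chromosome 17, and it was -0.316 without the peaks that had a *Hells* CTRL center within 5 kb (n = 2706). In windows of 20 kb and 500 kb it was -0.277 and -0.266. Regional G+C was nearly unrelated to the number of CpG dinucleotides at the center (-0.0411) and to peak width (-0.0413). Across all 7793 one-directional peaks the coefficient was -0.383, and in the 472 strong bidirectional peaks it was -0.327. In the 659 strong peaks off coding promoters it was -0.0301, and in the 10397 autosomal *Hells* CTRL peaks -0.0782. Peaks of 1 list share a depth and neighbouring peaks share their surroundings, so these coefficients are descriptions. The share of coding genes with a selected peak differed between chromosomes, from 6.87% of 2023 genes on chromosome 7 to 24.6% of 643 genes on chromosome 12.

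**Figure D4:**
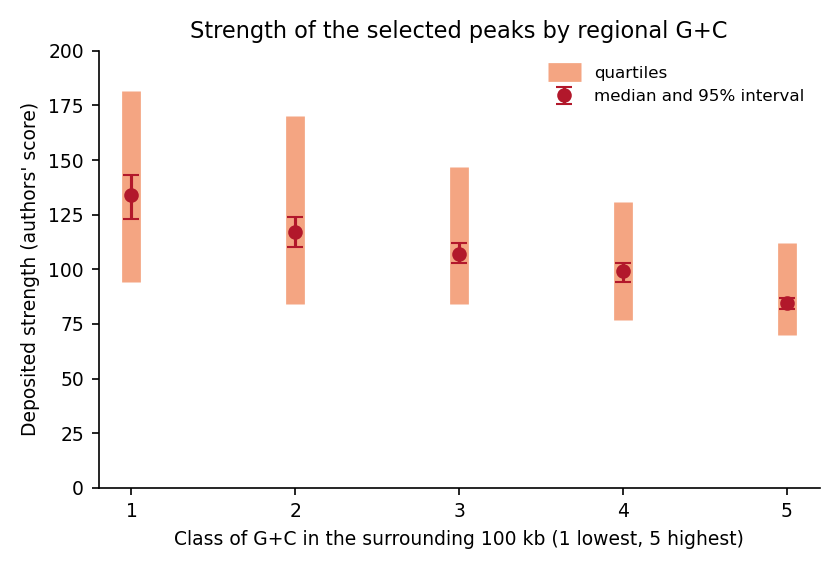
Strength of the selected peaks by regional G+C. The x axis gives 5 classes of the G+C content in the surrounding 100 kb and the y axis the deposited strength, the authors' score. Points are medians with 95% intervals and bars span the quartiles, and the medians are 134 in the lowest class and 84.5 in the highest.

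The letters of 12 known promoter motifs were searched in the 300 bp around the start, from 250 bp before it. Both strands were read, except for the TATA box (TATAAA), which was read on the sense strand 40 to 20 bp before the start. None of the motifs contains another, and a match is a description of the sequence, not of binding. To compare genes on 1 kind of start, the start of the transcript with the longest coding sequence was used for all. The sets still differ in their selection. The genes with a selected peak were not filtered by promoter type, and 85.7% of them were CpG-rich at this start. The promoters without a peak were all CpG-rich and one-directional. The Sp/KLF letters GGGCGG, typical of CpG islands, were in 69.6% of the 2827 genes with a selected peak, in 73.1% of the CpG-rich one-directional promoters without a peak and in 45.7% of all 20807 autosomal coding promoters. The YY1 letters AAGATGGCG were in 3.93% (3.24 to 4.71%), 1.68% (1.22 to 2.25%) and 1.94% of these promoters, and the BANP letters TCTCGCGA in 3.01% (2.41 to 3.70%), 0.802% (0.497 to 1.22%) and 1.28%. The ETS letters CCGGAAG were in 16.6%, 11.1% (9.96 to 12.4%) and 11.3%, and the NFY letters CCAATCA in 11.9% (10.7 to 13.1%), 7.33% (6.36 to 8.39%) and 8.55%. The TATA box was in 17 of the 2827 promoters (0.601%, 0.351 to 0.961%), in 1.64% (1.19 to 2.20%) of the CpG-rich promoters without a peak and in 2.42% of all promoters.

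The NRF1 letters GCATGCGC were in 6.05% (5.20 to 6.99%), 4.31% (3.57 to 5.16%) and 3.37% of the promoters in the same order. The CREB/ATF letters TGACGTCA were in 3.36% (2.73 to 4.09%), 2.75% (2.16 to 3.45%) and 2.38%, and the E-box CACGTG in 10.8% (305 of 2827), 10.1% (265 of 2620) and 7.72%. The MYB letters AACNGNC, which A-MYB can bind, were in 32.1% (907 of 2827), 27.3% (715 of 2620) and 32.2%. The RFX letters GTTGCCAT were in 1.10% (0.746 to 1.55%), 0.802% (0.497 to 1.22%) and 1.04%, and the ZNF143 letters ACTACAA in 3.71% (3.05 to 4.48%), 3.55% (2.87 to 4.33%) and 3.79%. At the start nearest to each selected peak, the Sp/KLF letters were in 2163 of 2831 windows (76.4%), the YY1 letters in 155 (5.48%) and the TATA box in 13 (0.459%). Weaker one-directional peaks, read at the same kind of start, had 65.1%, 3.08% and 0.826%. The ETS letters were in 17.41% of the selected and 18.02% of the weaker windows, and the E-box in 11.1% and 10.4%. The MYB letters were in 32.6% and 33.2%, the NFY letters in 10.2% and 8.81%, and the BANP letters in 2.47% and 1.79%. Strong bidirectional peaks had 27.8% for ETS, 15.7% for NFY and 4.66% for BANP, with 70.6% for Sp/KLF and 5.30% for YY1. Higher shares of ETS, NFY and BANP were therefore not particular to the selected peaks.

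Among gene groups, the share of genes with a selected peak is read against 13.6% of all autosomal coding genes and 28.2% of those with a CpG-rich one-directional promoter. Of the 44 genes of meiotic prophase, 15 (34.1%, 20.5 to 49.9%) had a selected peak, 15 a weaker one, 7 another *Hells* cKO peak and 7 none. *Mybl1* (strength 459) was followed by *Hells* itself (379, centered 68 bp downstream of the start) and *Syce1* (202). Among the 18 spermatogonial genes 5 had a selected peak: *Dazl*, an RNA-binding protein of germ cells (strength 196), *Sohlh2* (171), *Stra8* (163), and the remaining *Etv5* and *Ddx4*. Of the 34 spermatid genes 3 had one (8.82%, 1.86 to 23.7%): *Hook1* (184), which acts in shaping the sperm head, *Dnajb3* (82), a chaperone, and *Tbpl1* (79), a TBP relative needed in spermatids. None of the 15 Sertoli cell genes and none of the 11 Leydig cell genes had one, which at these numbers allows shares of up to 21.8% and 28.5%. CpG-rich promoters made up 72.7% of the meiotic, 44.4% of the spermatogonial, 26.5% of the spermatid, 46.7% of the Sertoli and 9.09% of the Leydig genes. Among genes with a CpG-rich one-directional promoter, 11 of 25 meiotic genes (44.0%, 24.4 to 65.1%) had a selected peak. The counts were 2 of 8 for spermatogonial, 3 of 6 for spermatid, 0 of 7 for Sertoli and 0 of 1 for Leydig genes. The exact intervals of all these shares include 28.2%.

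The 3 highest shares among the gene groups were those of ubiquitin-conjugating enzymes, cyclins and their kinases, and ubiquitin-specific proteases, with intervals that overlap those of many other groups. Of the 34 genes of ubiquitin-conjugating enzymes, 15 (44.1%, 27.2 to 62.1%) had a selected peak, led by *Ube2e3* (strength 318), *Ube2d3* (269) and *Ube2w* (207). Of the 29 among them with a CpG-rich one-directional promoter, 15 (51.7%, 32.5 to 70.6%) had one. The share was 18 of 50 (36.0%, 22.9 to 50.8%) for ubiquitin-specific proteases, which remove ubiquitin, with *Usp34* (252), *Usp16* (230) and *Usp14* (205), and 12 of 32 (37.5%, 21.1 to 56.3%) for cyclins and cyclin-dependent kinases, with *Ccnl1* (255), *Ccnl2* (162) and *Cdk13* (160). Proteasome subunits had 7 of 38 (18.4%, 7.74 to 34.3%), led by *Psma8* (253), the subunit specific to spermatocytes, followed by *Psmc6* (153) and *Psmd14* (151).

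Among genes of RNA and protein synthesis, the share ranged from 34.6% to 10.3%. The genes named *Eif*, most of them translation initiation factors and some their regulators, had 18 of 52 (34.6%, 22.0 to 49.1%), with *Eif4e* (245), *Eif3h* (200) and *Eif3e* (185). Mediator subunits, which link transcription factors to RNA polymerase II, had 9 of 31 (14.2 to 48.0%), with *Med7* (125), *Med13* (116) and *Med28* (114). Splicing factors had 17 of 67 (25.4%, 15.5 to 37.5%), with *Lsm8* (199), *Prpf4b* (170) and *Prpf38b* (166). Cytosolic ribosomal proteins had 17 of 76 (22.4%, 13.6 to 33.4%), with *Rps13* (233), *Rpl34* (209) and *Rps6* (150), and aminoacyl-tRNA synthetases 8 of 37 (21.6%, 9.83 to 38.2%), with *Yars2* (169), *Eprs* (136) and *Iars2* (99). Mitochondrial ribosomal proteins had 8 of 78 (10.3%, 4.53 to 19.2%), with *Mrpl15* (129), *Mrps9* (115) and *Mrps28* (105). RNA polymerase subunits had 3 of 28 (10.7%, 2.27 to 28.2%): *Polr3e* (183), *Polr2d* (101) and *Polr3d* (97). Of these last 2 groups, 89.7% and 92.9% of the genes had a CpG-rich promoter, and 23 and 11 genes had a *Hells* cKO peak of another kind, which includes bidirectional ones.

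Among groups of energy and transport genes, the share ranged from 21.1% to 9.23%. Respiratory complex I had 5 of 34 (14.7%, 4.95 to 31.1%), among them *Ndufb4* (101) and *Ndufv2* (98), and the vacuolar ATPase 4 of 22 (18.2%, 5.19 to 40.3%), led by *Atp6v1h* (144), *Atp6v1c1* (85) and *Atp6v1g1* (80). Rab GTPases, which direct vesicles, had 11 of 55 (10.4 to 33.0%), with *Rab5a* (179), *Rab21* (161) and *Rab2a* (120), and kinesins, the motors of microtubules, 8 of 38 (21.1%, 9.55 to 37.3%), with *Kif11* (217), *Kif2a* (178) and *Kif5b* (175). Solute carriers had 30 of 325 (9.23%, 6.31 to 12.9%), with *Slc38a2* (195), *Slc12a2* (188) and *Slc30a4* (188). Of the 139 solute carriers with a CpG-rich one-directional promoter, 24 had a selected peak (17.3%, 11.4 to 24.6%). Genes named *Zfp*, most of them zinc finger factors, had 61 of 383 (15.9%), with *Zfp292* (196), *Zfp397* (179) and *Zfp157* (179).

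Selected peaks were also counted in developmental regulators, most of which had CpG-rich promoters. Of the 39 *Hox* genes, which set position along the body axis, 25 (64.1%) had a CpG-rich promoter, and 1 had a selected peak (2.56%, 0.0649 to 13.5%), *Hoxd8* (strength 69, 7 above the threshold). Among the 93 *Fox*, *Sox*, *Pax*, *Lhx*, *Tbx* and *Gata* genes, 7 (7.53%, 3.08 to 14.9%) had one, led by *Sox30* (151), a factor of spermatocytes and spermatids, *Foxo1* (116) and *Foxn2* (111). Of the 58 of them with a CpG-rich one-directional promoter, 5 had one (8.62%). None of the 19 *Wnt* genes, of which 15 (78.9%) had a CpG-rich promoter, had one, which allows a share of up to 17.6%, above the 13.6% of all genes. Among genes with a CpG-rich one-directional promoter, 1 of 25 *Hox* genes had one (4%, 0.101 to 20.4%). For *Wnt* genes it was 0 of 15, which allows a share of up to 21.8%. Both upper limits were below the 28.2% of all genes with such a promoter, as were those of the *Fox* to *Gata* group and of solute carriers. The median regional G+C of the CpG-rich one-directional promoters was 48.9% for *Hox*, 46.5% for the *Fox* to *Gata* group and 50.3% for *Wnt*. It was 46.3% for solute carriers, 45.4% for all such promoters and 44.9% for those of ubiquitin-conjugating enzymes. The part of regional G+C in these shares was not tested.

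The last 7 groups are families with few CpG-rich promoters, and 2 of them had a selected peak. The single peaks were those of *Il17d* (strength 74) among 72 interleukins and chemokines and of *Cyp2r1* (72), a vitamin D hydroxylase, among 94 cytochrome P450 genes. There was none among 60 serpins, 66 defensins, 105 keratin and keratin-associated genes, 1087 olfactory receptors and 326 vomeronasal receptors. For olfactory receptors a count of 0 allows a share of up to 0.339%. CpG-rich promoters were 7.45% or fewer in each of these 7 groups.

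**Figure D5:**
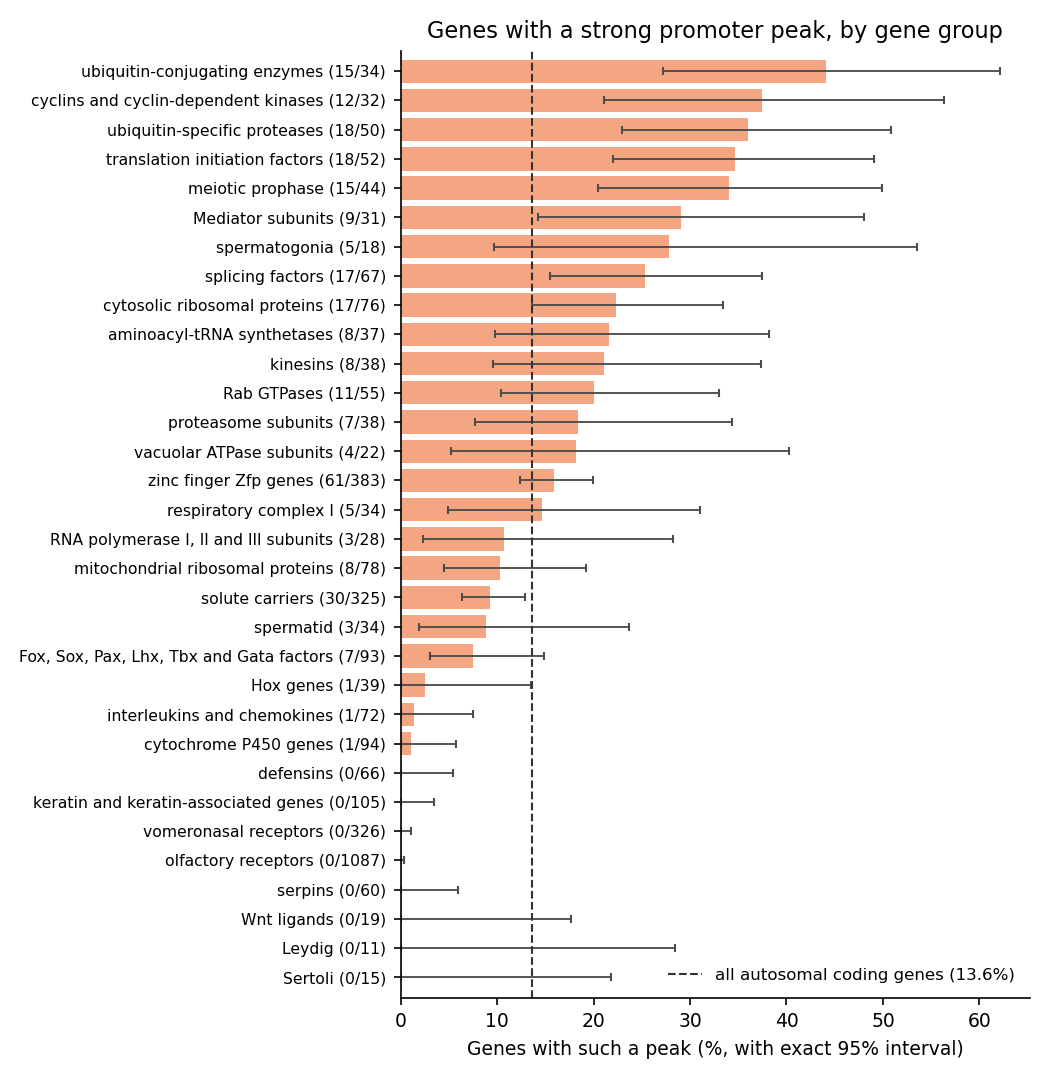
Genes with a one-directional promoter peak of strength 62 or more in each gene group. Bars give the percent of the group's genes, with exact 95% intervals and the numbers of genes beside each name, and the dashed line the 13.6% of all autosomal coding genes. Ubiquitin-conjugating enzymes reach 44.1%, and 8 groups have none.

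Most genes had 1 selected peak. By the nearest start, 35 genes had 2 and only *Rims2* had 3. The distance between the centers of such a pair had a median of 25509 bp and exceeded 5 kb in 29 of the 35 genes. The *Rims2* peaks lay at different annotated starts of the gene on chromosome 15. The first (strength 629) was at the start at 39198363, the second (chr15:39436566-39438773, strength 253) was centered in a coding exon 432 bp downstream of the start at 39437238, and the third (chr15:39659069-39660840, strength 87) was centered in an intron 389 bp downstream of the start at 39659566. The 500 bp around the centers held 58, 18 and 23 CpG dinucleotides in this order, and the second and the third were not CpG-rich. Of the 2831 selected peaks, 2800 had the starts of 1 gene within 1 kb, 29 those of 2 genes and 2 those of 3 genes on the same strand.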

How the data were processed

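The data are DMC1 ChIP-SSDS peak lists from the testes of 2 genotypes. Per the methods, the authors trimmed the reads to 50 bp, mapped them to GRCm38/mm10, kept unique non-duplicated reads, called peaks with MACS2 and took reproducible peaks of the pooled replicates. The deposited value is a score that the authors call strength. It counts fragments around the re-centered peak and was, by the methods, corrected for local background and scaled by library size. Every strength was a whole number, so whether the library-size step is included is unknown, as is the number of reads behind them. Promoters with near-identical copies can be missed, since only uniquely mapped reads were kept. The 5hMeDIP samples were not analysed here.

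Starts came from GENCODE M21 and sequence from the GRCm38 reference (Python 3.11.15, pandas 2.3.3, scipy 1.17.1). Shares have exact Clopper-Pearson 95% intervals and medians order-statistic intervals. Group assignment and motif search were tested on simulated data, where 100% of 2000 peaks were assigned as planted. The rule for naming took the 12 strongest peaks, those at the threshold, the 3 largest positions on each side among the strongest 500, the 3 strongest that were not CpG-rich, the 3 strongest of each gene group, and genes with 3 or more. One gene that this rule names is not reported here. Alternatives were the reach, the strength limit, interval overlap with *Hells* CTRL, other start definitions and other windows. The peaks, groups and motifs were chosen with earlier results of these data known.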

Additional observations from a re-analysis of the deposited data

How the results depend on the processing

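Of 55 alternative values, 28 stayed within the 95% interval of the reported value (or within 1.5 times the count). The share of centers downstream of the start was 77.8% without centers within 50 bp, 79.5% with 1 coding start, 80.1% with basic transcripts, 80.6% from the start of the longest coding sequence and 89.8% from the most upstream start. The median position was then 219.5, 176, 227 and 298 bp for the last 4 of these. At a strength of 100 or more there were 1539 peaks, with a median of 55 CpG dinucleotides and 94.8% CpG-rich. CpG-rich centers were 92.9% with a reach of 500 bp and 77.4% with a ratio of at least 0.75 and a G+C of at least 55%. Over 500 bp on each side the median was 41 CpG dinucleotides per 500 bp. Around the centers instead of the starts, motif shares were lower for all 11 motifs read: 70.0% for Sp/KLF, 1.62% for NRF1, 2.65% for YY1, 11.4% for ETS, 3.43% for NFY, 1.20% for CREB/ATF, 6.89% for the E-box, 29.7% for MYB, 0.459% for RFX, 1.10% for BANP and 1.06% for ZNF143. With a regional window of 500 kb, chosen after the data had been seen, the lowest of the 10 classes of G+C had 49.6% of promoters with a selected peak. The cause of these differences was not tested. No paired analysis was possible because each deposited list pools both replicates of its genotype. Without read counts, depth limits which weak peaks were called, and promoters without a peak cannot be taken as free of DSBs.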
